A study of Homo sapiens with 8 samples.

Results

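The 3′ untranslated regions (3′ UTRs) of messenger RNAs in HEK293 cells, an established human embryonic kidney cell line, held 273 cytosines that bisulfite RNA sequencing read as methylated and that stood alone. Bisulfite turns unmethylated cytosine into uracil and leaves 5-methylcytosine unchanged, so the methylation level is the share of reads that keep a cytosine. A cytosine was taken when at least 20 reads covered it, when the level was at least 20%, and when no other such cytosine lay within 50 nt on its strand. It also had to lie in a 3′ UTR of a protein-coding gene and in no coding exon on that strand. These 273 sites came from 18690 nuclear cytosines at or above both limits, of which 1095 stood alone, and from 1887567 cytosines of 3′ UTRs with at least 20 reads. The sites were thus chosen by their coverage and level, and their levels are given as a description.

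The bisulfite data were 2 samples of poly(A) RNA from HEK293 cells, deposited as a single table, so no methylation level carries an error between replicates. The other 6 samples were miCLIP libraries, 3 with NSun3 and 3 with NSun6, collected 24 h after HEK293 cells were transfected with a Myc-tagged construct. In miCLIP a mutated methyltransferase stays attached to its target cytosine, and reverse transcription stops beside it. Both enzymes were pulled down with the same anti-Myc antibody, and no library without an enzyme was analysed here. The NSun3 libraries held 47352 to 138921 reads and the NSun6 libraries 305392 to 467586, so 1 read was worth 7.20 to 21.1 reads per 1000000 reads of the library (RPM) with NSun3 and 2.14 to 3.27 RPM with NSun6. Bisulfite reads covered exons of the genes used to check the cell line, VIM, KRT8, KRT18, NEFM and PAX2, at 53 to 595 cytosines with at least 20 reads each. Of the genes of other cell types reported here, ALB, HBB, PTPRC, INS and MYH7, none had such a cytosine.

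5-Methylcytosine is written into RNA by the NSUN family and by TRDMT1. NSUN2, best known for methylating transfer RNAs, also modifies messenger RNAs, at cytosines followed within a few bases by a run of guanines. NSUN6 methylates the acceptor end of transfer RNAs for cysteine and threonine, and in messenger RNAs it modifies the first cytosine of CTCCA. NSUN3 works in mitochondria on the wobble cytosine of the methionine transfer RNA. The 3′ UTR follows the stop codon and carries sites that set the stability, place and translation of a messenger RNA.

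The sites shown first are at CTCCA, and each of those listed also had NSun6 reads. Each sequence is 30 bases of the hg19 reference read 5′ to 3′ on the transcript strand. The cytosine is base 14, and the capitals mark CTCCA.
FURIN, chr15:91425528-91425557, plus strand: gaggaggccacctCTCCAagggcttctgca
TIMM50, chr19:39980571-39980600, plus strand: gtgtcccgagagtCTCCAgatgggggcatc
RHOG, chr11:3848348-3848377, minus strand: tgctctctcccttCTCCAatgagggagcca
CALM3, chr19:47112705-47112734, plus strand: agcctctgccctcCTCCAgcccggatggct
SCMH1, chr1:41493736-41493765, minus strand: ggccacctcaggaCTCCAagaggctgtgtg
KREMEN1, chr22:29541778-29541807, plus strand: ctctggctcaagaCTCCAatcggccagaag
REEP6, chr19:1497265-1497294, plus strand: caggctcccaggcCTCCAcagagtcttcag
METTL27, chr7:73249024-73249053, minus strand: agctggcccctgaCTCCAtgtggccttagc

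The next sites have guanines at bases 2, 3 and 4 after the cytosine, written CNGGG. They are those among the 12 best supported levels and the 5 deepest sites, with the one in NSUN2 itself. The flanks of RTN3 have 1 copy elsewhere, and the capitals mark the cytosine and the 4 bases after it.
AP5Z1, chr7:4831152-4831181, plus strand: cctcacagacacgCGGGGctggcccccctg
OGFOD3, chr17:80348447-80348476, minus strand: aaccctccttggtCAGGGctgcaggctctg
SLC22A23, chr6:3270558-3270587, minus strand: gcctgatacgcatCTGGGcccgccgggctc
NSUN2, chr5:6600007-6600036, minus strand: aggcccaaggcagCGGGGgcccacacccct
EDF1, chr9:139756610-139756639, minus strand: ggggtccagcttgCGGGGgaccctccccag
RTN3, chr11:63526350-63526379, plus strand: ctgccactatcccCAGGGaaggaaaggctc
CDCA5, chr11:64845552-64845581, minus strand: taccagacagcggCGGGGgctgatagcaat

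The last sites have neither arrangement and include the highest levels of all. Only the cytosine itself is in capitals.
NIBAN2, chr9:130268733-130268762, minus strand: gctggtgtgagccCagtgggttcccgccca
LRRC3, chr21:45878993-45879022, plus strand: gtgtcgccatgctCggaggacagagacctc
NDUFS7, chr19:1393451-1393480, plus strand: ggatgggccgactCggagcgctgcctctta
MRPS25, chr3:15093316-15093345, minus strand: ggccagcctcactCaggcacgtacctgctg
SZRD1, chr1:16723137-16723166, plus strand: agcagatacgtttCggagtggttggtgtgg
SLC35B4, chr7:133977779-133977808, minus strand: tttattccactgtCcagagctattctctga
SAMD11, chr1:879842-879871, plus strand: gagctgacttcagCagcccacagctgtggg

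Most of the 273 sites were only just above the threshold. The levels ran from 20% to 92.3%, with a median of 23.8%. There were 150 sites from 20% to under 25%, 59 from 25% to under 30%, 38 from 30% to under 40%, 13 from 40% to under 50%, and 13 at 50% or more. Just inside the threshold, 65 sites lay from 20% to under 21%, of which 45 were at exactly 20% and 18 of those rested on 4 of 20 reads. Just outside it, 76 covered cytosines with no methylated neighbour lay from 19% to under 20%. The exact 95% binomial interval, which covers the counting of reads only, lay wholly above 20% at 47 sites and included 20% at the other 226. In bulk RNA a level cannot tell a share of the molecules in each cell from a share of the cells.

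Whether the sequence around a site occurred only at that place split the 273 sites into groups with different levels and different surroundings. The 31 bases centred on the cytosine, with every cytosine read as thymine, occurred elsewhere in the genome for 149 sites (54.6%, exact 95% interval 48.5% to 60.6%). Of these, 97 had at least 1000 other copies. Aligners of bisulfite reads make the same conversion over whole reads, so a copied window does not show that a read had more than 1 place. Without conversion, the central 21 bases had at least 10 other exact copies at 50.5% of the sites (44.5% to 56.6%) and at 6.84% of 3′ UTR cytosines with the same coverage and a level under 20%. An identical 21-base window was shared with another site by 35 of the 273. The site in EIF2S3, the gamma subunit of the initiation factor eIF2, had the most reads of all, 520 methylated of 2278 (22.8%, interval 21.1% to 24.6%), and its 31 bases occurred at 604 other places. RTN3, a reticulon of the endoplasmic reticulum, had 238 of 709 reads methylated (33.6%, interval 30.1% to 37.2%) and 1 other copy.

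The 149 sites with copied flanks had a median level of 22.6% and reached at most 50%. The 124 with unique flanks had a median of 25.9% and reached 92.3%. Of the 26 sites at 40% or more, 23 had unique flanks. Other cytosines within 50 nt also differed: pooled over the covered neighbours of each site, their median level was 4.35% beside the copied sites and 0.0629% beside the unique sites, and it was at least 1% at 122 of 146 copied sites and at 12 of 124 unique sites with covered neighbours. The level over all 3′ UTR cytosines under 20% was 0.146%. The part that copies and unconverted neighbours had in these calls was not tested, and the values below are therefore given for the unique sites as well.

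**Figure D1:**
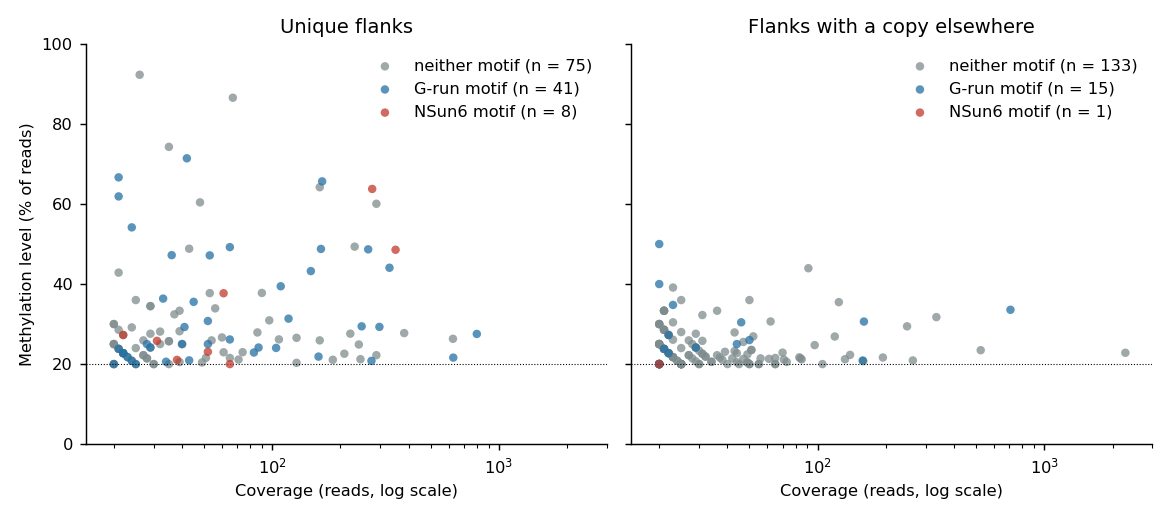
Methylation level (percent of reads) against coverage (reads, log scale) for all 273 sites, 1 point per site, with unique flanks on the left and copied flanks on the right; the dotted line is the 20% threshold and colours give the motif (NSun6 motif, CTCCA; G-run motif, CNGGG). Levels above 50% appear only among the sites with unique flanks, and the copied sites crowd between 20% and 40% at low coverage.

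Coverage also moved with the number of sites. For each 1000000 covered 3′ UTR cytosines there were 342 sites at 20 to 29 reads (exact 95% interval 284 to 407), 134 at 30 to 49 reads (101.4 to 174), 101.3 at 50 to 99 reads (74.2 to 135) and 70.7 at 100 reads or more (51.8 to 94.3). The share with unique flanks was 35.2% of the 125 sites at 20 to 29 reads and 67.4% of the 46 sites at 100 reads or more. Thus the deepest class had the lowest rate and the largest share of unique flanks.

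**Figure D2:**
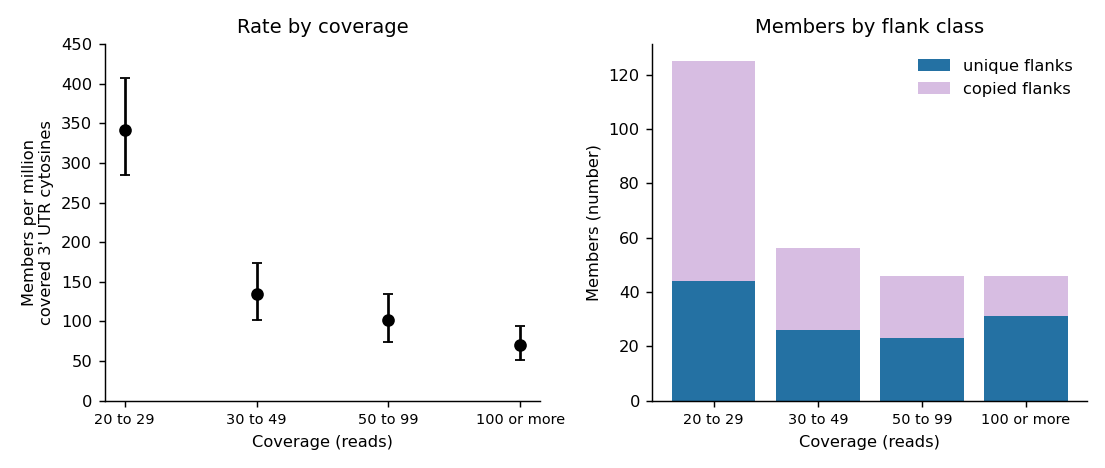
Left, sites per 1000000 covered 3′ UTR cytosines in 4 classes of coverage, with exact 95% binomial intervals as bars; right, the number of sites in each class, split into unique and copied flanks. The rate falls from 342 to 70.7 across the classes.

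The 12 sites with the highest lower bound of the interval all had unique flanks, 2 of them at CTCCA, 3 at CNGGG and 7 at neither. NIBAN2, a regulator of cell death and cell junctions, had 58 of 67 reads methylated (86.6%, interval 76.0% to 93.7%) at chr9:130268749, 378 nt into a 3′ UTR of 1509 nt. LRRC3, a membrane protein with leucine-rich repeats, had 24 of 26 (92.3%, interval 74.9% to 99.1%) at chr21:45879006. In both 3′ UTRs the neighbouring cytosines were converted, with a pooled level of 0.180% over 26 neighbours in NIBAN2 and of 0 over 24 in LRRC3.

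NDUFS7, a core subunit of respiratory complex I, had 26 of 35 reads methylated (74.3%, interval 56.7% to 87.5%) at chr19:1393464. MRPS25, a protein of the small mitochondrial ribosomal subunit, had 104 of 162 (64.2%, interval 56.3% to 71.6%) at chr3:15093332. SZRD1, named for its RNA-binding domain, had 173 of 288 (60.1%, interval 54.2% to 65.8%) at chr1:16723150, and this was the deepest of the sites above 60%. SLC35B4, a nucleotide sugar transporter of the Golgi, had 29 of 48 (60.4%, interval 45.3% to 74.2%) at chr7:133977795. SAMD11 had 114 of 231 (49.4%, interval 42.7% to 56.0%) at chr1:879855. The sites of NDUFS7, SZRD1, SLC22A23 and SAMD11 also lie opposite an exon of a gene on the other strand, as do 19 of the 273, and the cytosine itself fixes the strand that was read.

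Sites of the CNGGG kind were far more frequent than among other 3′ UTR cytosines. CNGGG stood at 56 of the 273 sites (20.5%, exact 95% interval 15.9% to 25.8%), compared with 2.87% of 1882806 covered 3′ UTR cytosines under 20%. With unique flanks it stood at 41 of 124 sites (33.1%, interval 24.9% to 42.1%), against 2.81% of the cytosines under 20% whose 21 bases had no copy. Isolated methylated cytosines elsewhere in messenger RNA were counted with flanks of either kind. They had CNGGG at 51 of 178 in coding exons (28.7%, interval 22.1% to 35.9%) and at 31 of 85 in 5′ UTRs (36.5%, interval 26.3% to 47.6%). Both intervals overlap that of the unique sites. Against the interval of all 273 sites, that of coding exons overlaps and that of 5′ UTRs lies above. CNGGG was read on the transcript strand only.

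The levels at CNGGG reached into the upper range. The 41 unique CNGGG sites ran from 20% to 71.4% with a median of 27.5%, and 12 of them were at 40% or more. OGFOD3, named for its oxygenase domain, had 30 of 42 reads methylated (71.4%, interval 55.4% to 84.3%) at chr17:80348463. SLC22A23, a member of the organic ion transporter family, had 14 of 21 (66.7%, interval 43.0% to 85.4%) at chr6:3270574. AP5Z1, a subunit of the AP-5 adaptor complex, had 109 of 166 (65.7%, interval 57.9% to 72.8%) at chr7:4831165. EDF1, a factor associated with ribosomes and transcription, had 220 of 799 (27.5%, interval 24.5% to 30.8%) at chr9:139756626, the second deepest of all sites. CDCA5, the cohesin regulator sororin, had 136 of 629 (21.6%, interval 18.5% to 25.05%) at chr11:64845568. The fifth deepest site was in CLCN7, a lysosomal chloride transporter, which had 165 of 627 (26.3%, interval 22.9% to 29.9%) at chr16:1495765 and neither motif.

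The messenger RNA of NSUN2, the enzyme known for the CNGGG context, held such a site itself. At chr5:6600023, 1629 nt into a 3′ UTR of 2299 nt, 80 of 164 reads were methylated (48.8%, interval 40.9% to 56.7%), while the pooled level of its 36 covered neighbours was 0.186%. Of the 18 listed genes that write, read or remove 5-methylcytosine, NSUN2 was the only one with a site. The others were NOP2, NSUN3, NSUN4, NSUN5, NSUN6, NSUN7, TRDMT1, ALYREF, YBX1, YTHDF2, SRSF2, FMR1, RAD52, TET1, TET2, TET3 and ALKBH1. NSUN7 and TET1 had no covered 3′ UTR cytosine, and the next highest level was 19.05%, in NSUN4.

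Guanine was frequent around the unique sites with neither motif too. Among these 75 sites, guanine stood at bases 2, 3 and 4 after the cytosine in 50.7%, 48% and 44%, and at bases 3, 2 and 1 before it in 52%, 45.3% and 49.3%. Among cytosines under 20% these shares were 27.9%, 26.9% and 27.6% after the site and 23.8%, 25.1% and 24.6% before it. The base right after the site was guanine in 36.0% against 6.96%. Guanine was not particular to the unique sites. The 149 copied sites, of any motif, had it in 65.1%, 49.7% and 47.7% at bases 2, 3 and 4 after the cytosine. At bases 3, 2 and 1 before it they had 20.1%, 56.4% and 59.7%, and right after it 12.1%.

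**Figure D3:**
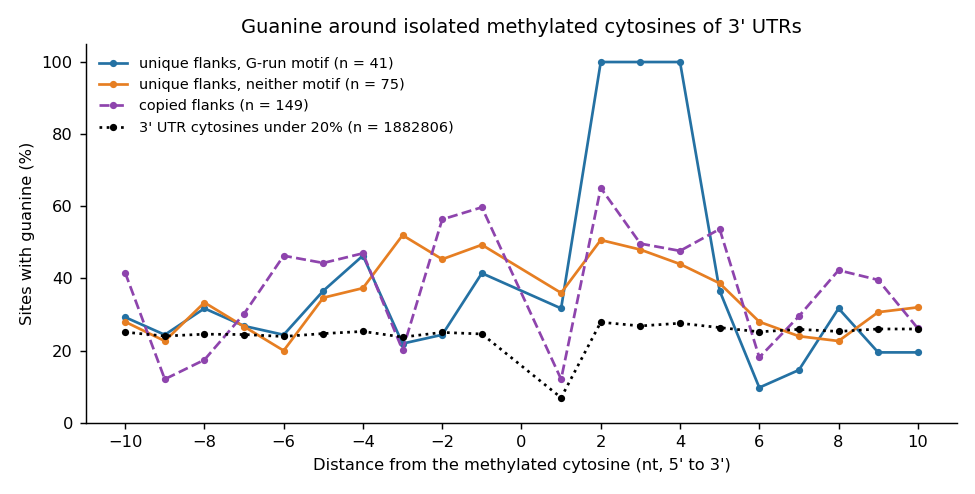
Share of sites with guanine (percent) at each distance from the methylated cytosine (nt) for unique sites with the G-run motif CNGGG, unique sites with neither motif, sites with copied flanks, and 3′ UTR cytosines under 20%. The G-run sites are at 100% from base 2 to base 4 by the definition of the motif, and the unique sites with neither motif lie at 44% to 50.7% there against 26.9% to 27.9% for the cytosines under 20%.

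CTCCA, the context of NSUN6, stood at fewer sites. It was found at 9 of the 273 (3.30%, exact 95% interval 1.52% to 6.17%), compared with 0.706% of cytosines under 20%, and with unique flanks at 8 of 124 (6.45%, interval 2.83% to 12.3%) against 0.682%. Isolated sites of coding exons and 5′ UTRs were counted with flanks of either kind. In coding exons 18 of 178 isolated methylated cytosines had CTCCA (10.1%, interval 6.10% to 15.5%). In 5′ UTRs it was at 0 of 85, which allows a share of up to 3.53%. Both motifs were read on the transcript strand, and their letters exclude each other, since base 2 after the site is C in CTCCA and G in CNGGG.

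NSun6 truncation reads fell on 10 of the 273 sites (3.66%, exact 95% interval 1.77% to 6.63%), compared with 0.648% of cytosines under 20%. All 10 had unique flanks, where the share was 8.06% (interval 3.94% to 14.3%) against 0.700% for cytosines under 20% with no 21-base copy. At the copied sites it was 0 of 149, which allows a share of up to 2.01%, and only miCLIP reads with a single best place in the genome had been kept. All 8 unique CTCCA sites had NSun6 reads. The other 2 were EDF1, at CNGGG, with 0, 1 and 0 reads in replicates 1, 2 and 3, and SF3B5, a splicing factor subunit with neither motif, with 0, 2 and 0. Among all covered 3′ UTR cytosines at CTCCA, at any level, 9977 had no NSun6 read. Reads were present at 320 with over 50 RPM in at least 2 NSun6 libraries and at 3049 below that. NSun3 reads fell on 1 site, RHOG. The strand of the miCLIP reads was inferred. At positions in exons of 1 strand it matched the exon in 63.0% to 82.0% with NSun3 and in 97.0% to 97.4% with NSun6. The ninth CTCCA site, in TIMM50, was a copied sequence with 17843 other places, 4 of 20 reads methylated and no miCLIP read.

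FURIN, the protease that cleaves proproteins, had the highest level of the CTCCA sites, with 176 of 276 reads methylated (63.8%, interval 57.8% to 69.4%) at chr15:91425541. NSun6 replicates 1, 2 and 3 held 347, 476 and 298 reads there, or 1071, 1018 and 976 RPM. The NSun3 libraries held none. Against the limit of 3 reads over the NSun3 libraries together, 12.5 RPM, the pooled NSun6 value was at least 81.5-fold higher. FURIN and the sites that follow are compared here because they had NSun6 reads. That choice fixes the direction, so the bounds give sizes only. RPM also divides by each library's total, and the paper reports most NSun3 sites in mitochondrial RNA.

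TIMM50, part of the translocase that imports proteins through the mitochondrial inner membrane, had 170 of 350 reads methylated (48.6%, interval 43.2% to 53.9%) at chr19:39980584, 127 nt into the 3′ UTR. Its NSun6 reads numbered 238, 363 and 281, or 735, 776 and 920 RPM, with none in NSun3, at least 64.1-fold higher. TIMM50 was also the gene with the most sites, 3. Its other 2, with 10 of 31 and 4 of 20 reads methylated, had copied flanks. Sites were found in 259 genes, of which 12 had 2: H2AZ2, MCUR1, MTO1, NDUFV3, OGFOD3, PHACTR4, PVR, RAB11FIP4, SNX22, TAF8, UNKL and UTP6.

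CALM3, 1 of the genes for calmodulin, had 12 of 52 reads methylated (23.1%, interval 12.5% to 36.8%) at chr19:47112718. NSun6 held 286, 371 and 199 reads, or 883, 793 and 652 RPM, and NSun3 none, at least 62.2-fold higher. SCMH1, a Polycomb group protein, had 8 of 38 (21.1%, interval 9.55% to 37.3%) at chr1:41493752, with 63, 180 and 99 NSun6 reads, or 194, 385 and 324 RPM. KREMEN1, a receptor for the Wnt antagonist Dickkopf, had 23 of 61 (37.7%, interval 25.6% to 51.04%) at chr22:29541791, with 62, 65 and 29 NSun6 reads, or 191, 139 and 94.96 RPM. Neither had an NSun3 read, so the pooled NSun6 values were at least 24.9-fold and 11.3-fold higher. In each of these genes every NSun6 library lay above every NSun3 library, a direction set by choosing sites with NSun6 reads.

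RHOG, a small GTPase, had the most NSun6 reads of the sites and the fewest bisulfite reads of the CTCCA sites with unique flanks. Its level was 6 of 22 reads (27.3%, interval 10.7% to 50.2%) at chr11:3848364. NSun6 held 700, 780 and 661 reads, or 2161, 1668 and 2164 RPM. NSun3 held 36, 0 and 0, so the single NSun3 library with reads had 259 RPM. REEP6, which shapes the endoplasmic reticulum, had 13 of 65 (20%, interval 11.1% to 31.8%) at chr19:1497278 and 5, 41 and 33 NSun6 reads. METTL27 had 8 of 31 (25.8%, interval 11.9% to 44.6%) at chr7:73249040 and 0, 5 and 1 NSun6 reads. For these last 2 genes the lowest NSun6 library was far below the others or at 0.

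**Figure D4:**
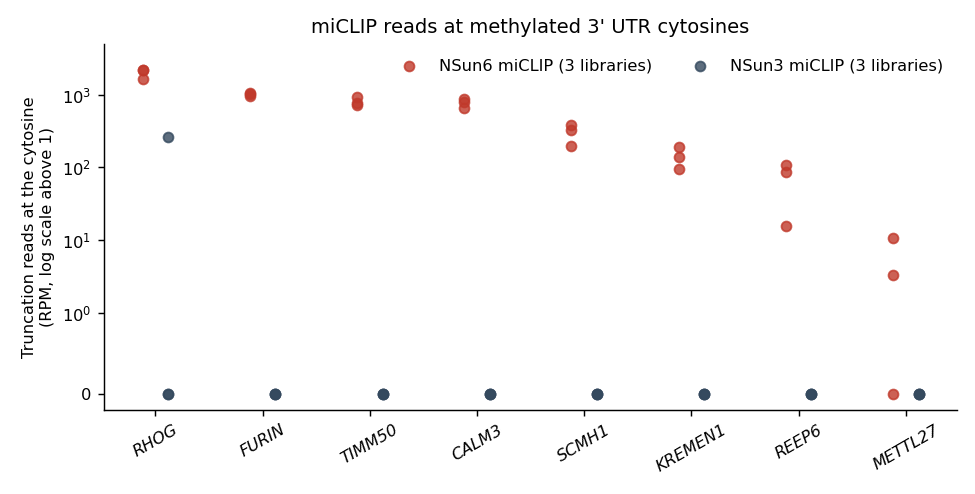
Truncation reads (RPM, log scale above 1) at the 8 methylated 3′ UTR cytosines with reads in at least 2 of 3 NSun6 libraries, 1 point per library, NSun6 in red and NSun3 in dark grey. NSun6 lies above NSun3 in every library for the genes from RHOG to KREMEN1, from 2164 RPM down to 94.96 RPM, while in REEP6 the lowest NSun6 library, at 15.4 RPM, is under the 18.9 and 21.1 RPM of 1 read in NSun3 replicates 2 and 3. RHOG alone has an NSun3 value, 259 RPM. The sites were taken for their NSun6 reads, which fixes the direction.

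Reads per cytosine were compared between NSun3 and NSun6 with edgeR's quasi-likelihood test over 1737 cytosines with enough reads, which called 88.1% at a Benjamini-Hochberg adjusted p under 0.05 and 70.6% as lower in NSun3. Of the 273 sites 6 had enough reads, and all 6 were called lower in NSun3: FURIN, TIMM50, CALM3, SCMH1, KREMEN1 and RHOG. Each of the 6 passed the filter only through its NSun6 reads, which fixed the direction, and most cytosines tested were called, so this count says nothing of these sites as a group. The first 5 of them had no NSun3 read, and the bounds above give their size. For RHOG the log2 fold change, NSun3 over NSun6, was -4.09 ± 1.17 (SE), given as a size only since its direction was fixed. The size was -5.82 with RLE scaling, -5.94 with DESeq2 and -6.38 with a replicate block. The call was lost without NSun3 replicate 2 (-3.79) and without NSun6 replicate 1 (-4.91). Without NSun3 replicate 1, which held every NSun3 read of RHOG, the value was -12.09. That value rests on no NSun3 read and is not a measured size.

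Strong NSun6 reads did not come with a high level at most 3′ UTR cytosines of CTCCA. With at least 20 bisulfite reads, 320 of them had over 50 RPM in at least 2 of 3 NSun6 libraries, the study's limit for a high-confidence site. Of these 320, 7 reached 20% (2.19%, exact 95% interval 0.884% to 4.45%), and all 7 were isolated sites described above, from FURIN to REEP6. A level of at least 5% was reached by 33 (10.3%, interval 7.21% to 14.2%). The median level of the 320 was 0.318% at a median coverage of 120 reads, and 139 had no methylated read. Where NSun6 reads were present below that limit, 23 of 3049 CTCCA cytosines reached 5% (0.754%, interval 0.479% to 1.13%). Without any NSun6 read 242 of 9977 did (2.43%, interval 2.13% to 2.75%), and of the 46 among them that reached 20%, only the copied TIMM50 site stood alone.

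Ranked by mean NSun6 RPM among these 320 cytosines, RHOG was at place 2, FURIN at 11, TIMM50 at 19, CALM3 at 22, SCMH1 at 68, KREMEN1 at 126 and REEP6 at 244. Place 1 belonged to CALR, a chaperone of the endoplasmic reticulum, which had 3328 RPM and 4 of 356 bisulfite reads methylated (1.12%) at chr19:13055131. The order of NSun6 reads was thus not the order of methylation levels. Truncation reads are not divided by the amount of the messenger RNA, so they do not compare the occupancy of 2 transcripts. They also came from cells transfected with a mutated enzyme, and the levels from separate bisulfite samples of HEK293 RNA.

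At the unique CTCCA sites the cytosine was mostly predicted to be unpaired, a feature that the rule had not used. In 61 bases of reference sequence folded with ViennaRNA, the cytosine was unpaired with a median probability of 0.982 over the 8 sites, and all 8 were above 0.5. With a longer window, 50 bases on either side, the median was 0.884 and 7 of the 8 were above 0.5, with RHOG at 0.439. Over the 13290 CTCCA cytosines under 20%, folded in 61 bases only, the median was 0.479, and 49.1% were above 0.5. The mean unpaired probability of the 8 sites was 0.903 at the cytosine. It ran from 0.0159 to 0.330 over bases 6 to 13 before it and from 0.00440 to 0.360 over bases 7 to 13 after it, and was 0.467 at base 5 before and 0.543 at base 14 after. CTCCA cytosines under 20% had 0.484 at the cytosine, 0.480 to 0.510 over the same bases before it and 0.481 to 0.501 over those after it. The value at the cytosine was 0.999 or more in KREMEN1 and SCMH1, 0.958 in FURIN, 0.758 in TIMM50 and lowest, 0.543, in RHOG. Base pairing was predicted, not measured, and nearby bases in a window are not independent. All 8 sites had NSun6 reads, while most CTCCA cytosines under 20% had none. Those with NSun6 reads and a level under 20% were not compared separately.

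For the CNGGG sites the predicted pairing of the cytosine depended on the length folded. Over the 41 unique sites its median unpaired probability was 0.155 in 61 bases (quartiles 0.0162 and 0.888), beside 0.269 for 54066 CNGGG cytosines under 20%, and it was 0.487 with 50 bases on either side, a window folded for the sites only. In NSUN2 the value was 0.0330 in 61 bases and 0.535 in the longer window, and in OGFOD3 it was 0.00102 and 0.170. In AP5Z1 it was 0.999 and 0.994, and in EDF1 0.966 and 0.886. Around the cytosine, in 61 bases, the guanine at base 3 had a mean of 0.135 against 0.234 for CNGGG cytosines under 20%, and bases 7 and 8 had 0.713 and 0.693 against 0.489 and 0.480. Over all 273 sites the median at the cytosine was 0.307, and over 81917 other covered cytosines of the same 3′ UTRs it was 0.396.

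**Figure D5:**
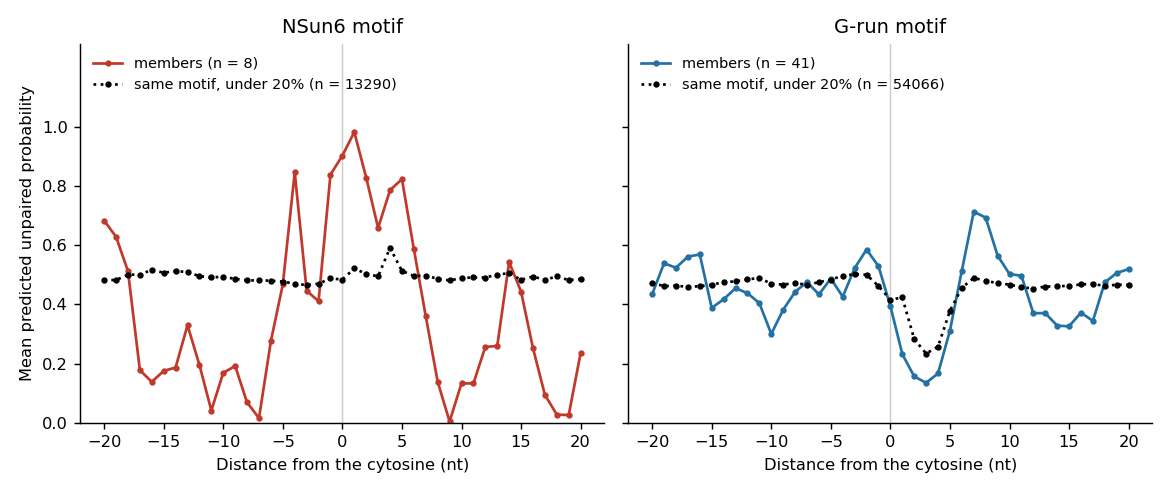
Mean predicted unpaired probability at each distance from the cytosine (nt) for unique sites at the NSun6 motif CTCCA (left, n = 8) and at the G-run motif CNGGG (right, n = 41), with the same motif under 20% as dotted lines. On the left the sites have 0.903 at the cytosine and 0.982 at the base after it, with lower values on both sides, and on the right the lowest values are in the guanine run, with a peak of 0.713 at 7 bases after the cytosine.

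The median position of the sites along the 3′ UTR, from 0 at the stop codon to 1 at the transcript end in the longest 3′ UTR that holds the site, was 0.461 (quartiles 0.237 and 0.677), beside 0.469 (0.217 and 0.717) for covered cytosines under 20%. In the first 100 nt after the stop codon lay 14 of the 273 sites (5.13%, exact 95% interval 2.83% to 8.45%) and 7.47% of the cytosines under 20%. These were 13 of the 124 unique sites (10.5%, interval 5.70% to 17.3%) and 1 of the 149 copied sites (0.671%, interval 0.0170% to 3.68%). Of the unique CTCCA sites, REEP6 lay 71 nt and METTL27 36 nt into the 3′ UTR, and KREMEN1 3694 nt. The longest 3′ UTR can belong to a minor transcript, and 264 of the 273 sites also lay in a 3′ UTR of a transcript that GENCODE tags as basic.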

How the data were processed

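The authors collapsed random barcodes, trimmed adapters, aligned miCLIP reads of at least 18 nt to hg19 with bowtie, leaving out those with more than 1 best place, and deposited counts of reads per truncation position. For the bisulfite samples they deposited, in 1 table, the percent methylated at each cytosine beside the counts of reads that stayed cytosine or were converted, from Bismark on hg19. The study's methods describe levels both with and without removal of PCR duplicates. Which of these this table holds, and whether its samples were pooled, is not given in the sources used here. Positions in that table count from 0, and coordinates are printed from 1. Strand of the bisulfite positions came from C or G in hg19. The miCLIP strand was inferred from the order of entries, with the first pass over the chromosomes taken as plus and the next as minus.

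3′ UTRs and coding exons came from GENCODE on GRCh37. Truncations were given to the nearest cytosine within 2 nt, the 5′ one in a tie. RPM used each library's total. Reads per cytosine were tested with edgeR 4.0.16 (quasi-likelihood, TMM, filterByExpr, R 4.3.3), with DESeq2 1.42.0 as an alternative, over all cytosines. The SE was taken as the size of the fold change (log2) over the root of the F statistic. In a simulation of NSun3 against NSun6 on 1353 cytosines with 146 changed 8-fold, 87.0% of these were called and 3.79% of calls were false. Its changes were drawn in equal number up and down and left most cytosines unchanged. In the data 88.1% of the cytosines tested were called, so these rates do not carry over to them. Exact binomial intervals are Clopper-Pearson at 95% and cover counting error only. The limit that a count of 0 allows is 3 counts. Folding used ViennaRNA 2.7.2. The labels number the miCLIP replicates without naming separate cultures, so p-values measure the spread between these libraries, which may be technical.

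Sites named with values are the 12 with the highest lower interval bound, those with NSun6 reads in at least 2 of 3 libraries (up to 12 by mean RPM), the 5 deepest, the genes with most sites, and the sites in 18 listed 5-methylcytosine genes. SF3B5 and CALR were named after their values were seen. The sites and lists were chosen with earlier results of these data known. The result for 1 further listed marker gene is not reported here.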

Additional observations from a re-analysis of the deposited data

How the results depend on the processing

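Changing the rule changed the number of sites most: 508 at a coverage of at least 10 reads, 114 at 50, 782 at a level of at least 10%, 61 at 40% and 124 without copied flanks, against 273. The median level was 22.8% at a coverage of at least 10, 12.2% at a level of at least 10%, 44.4% at 40% and 25.9% without copied flanks. Without copied flanks the share at CTCCA was 6.45%, the share followed by NGGG was 33.1% and the share with an NSun6 truncation was 8.06%. The share followed by NGGG was 29.5% at a level of at least 40%. Asking for isolation within 100 nt, or for basic-tagged transcripts, left every share and median within its interval, as did each other alternative for position. Folding 50 bases on either side gave a median unpaired probability of 0.224 over the 273 sites, within the interval of the 0.307 in 61 bases, and 0.487 in place of 0.155 at the unique sites followed by NGGG. With miCLIP the 1530 calls over all cytosines became 4168 without a filter, and 1160 to 2811 when 1 library was left out, where more or fewer cytosines were tested. The 6 called sites became 6 or 7. They passed the filter only through their NSun6 reads, which fixed the direction, so these counts are no support for the sites. Leaving out a library gave -3.79 to -4.96 for RHOG, the only site that lost its call. The exception was NSun3 replicate 1, which held every NSun3 read of RHOG. Without it the value was -12.09 and rested on no NSun3 read. Same-numbered libraries did not deviate together (correlations of -0.0707, 0.0559 and 0.103), and a replicate block gave 1402 calls and 6 called sites. Depth limits most levels: 181 sites had under 50 reads.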
